A study of Mus musculus with 4 samples.

Results

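The response of mouse peritoneal macrophages to tumor-conditioned medium was described across all genes in the presence of vehicle. 4T1-CM is culture medium that had been conditioned by 4T1 cells, an established mouse mammary carcinoma line, and it therefore carries what these cells release. The library labelled with 30% 4T1 and DMSO, the solvent used as vehicle, was compared with the library labelled with 0% 4T1 and DMSO, which is called normal medium here. Pairs of values are given in the order normal medium, 4T1-CM. Genes were taken when they had 10 or more reads in at least 1 of these 2 libraries. That left 13322 of the 54532 genes in the table, 24.4%, and 11727 of those kept are annotated as protein-coding. At the edge of this rule, 184 genes had exactly 10 reads in their higher library and 231 had exactly 9.

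The study asked how active the aryl hydrocarbon receptor (AHR) is in macrophages before breast cancer spreads to the lung. Its 4 libraries of peritoneal macrophages combine the 2 media with DMSO or with 10 µM CH223191, an AHR antagonist, and all 4 carry the genotype label WT. By the methods, peritoneal macrophages came from BALB/c mice, 8 to 10 weeks old, injected with thioglycollate, which draws inflammatory macrophages into the peritoneum. How many animals were pooled and how long these cultures stood in 4T1-CM are not given in the sources used here. With 1 library for each condition there is no spread between replicates, so no p-value is given for this comparison and differences are differences between these libraries. In bulk RNA, fewer cells of a type and less RNA per cell cannot be told apart.

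Macrophages read soluble signals through receptors that feed a small set of transcription factors. Toll-like and interleukin-1 receptors act through NF-kB, which switches on cytokines and chemokines. Interferons act through STAT and IRF factors on antiviral genes. GM-CSF acts through JAK2 and STAT5, whose target genes include the feedback inhibitors of the SOCS family. Low oxygen and inflammatory signals raise HIF-1, which drives glycolysis and angiogenic factors, while AHR is a ligand-activated factor that induces detoxifying enzymes. PPARG and TFEB stand for the other side of macrophage biology, the uptake and breakdown of lipids in lysosomes.

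The normal medium library held 15535405 reads and the 4T1-CM library 17557127. The 50 most abundant genes took 26.2% and 29.1% of them, and genes of the mitochondrial chromosome took 0.633% and 1.76%. The cells carried macrophage markers in both libraries, with 4098 and 17920 reads of Adgre1 (the gene of F4/80), 8092 and 18166 of Csf1r and 18266 and 35967 of Cd68. Several markers of other cells were at 0. Epcam, Krt18, Krt19 and Krt5, which mark epithelial cells, were at 0 reads in both libraries, as were the T cell genes Cd3d, Cd3e and Cd3g and the neutrophil genes Ly6g and S100a9. Of 13 epithelial markers 1 was kept, Cdh1 with 3 and 16 reads, and of 10 T cell markers 3 were kept, Cd4, Lck and Cd2, with 10 to 14 reads each. Collagen genes were present, with 359 and 958 reads of Col1a1 and 429 and 1117 of Col1a2. The summed level of 10 fibroblast markers, 9 of them kept, was 70.8 and 159 counts per 1000000 reads (CPM). Of the 9 kept, 6 were at least 2-fold higher in 4T1-CM and 1 was at least 2-fold lower. Of 12 neutrophil markers 4 were kept, S100a8 with 99 and 560 reads, Mmp8 with 35 and 2142, Csf3r with 929 and 1521 and Cxcr2 with 12 and 2. Their list summed to 67.5 and 242 CPM, of which Mmp8 gave 2.19 and 122. Of 9 monocyte markers 4 were kept, led by F13a1 with 22 and 249 reads and Vcan with 11 and 134, while Ly6c2 was at 0, and of 9 markers of erythroid cells and platelets 3 were kept with a sum of 4.69 and 80.2 CPM, most of it Pf4. Other sums were smaller in 4T1-CM. Of 7 endothelial markers 4 were kept with a sum of 106 and 43.6 CPM, most of it Vwf with 1540 and 491 reads. Vwf was the 1 marker of these 4 at least 2-fold lower in 4T1-CM, whereas 2 were at least 2-fold higher. Tek, Cldn5 and Emcn were at 0. Of 11 B cell markers 3 were kept with a sum of 22.2 and 10.7 CPM and Pax5 at 0. Of these 3, 1 was at least 2-fold higher in 4T1-CM and 1 at least 2-fold lower. Of 7 eosinophil markers only Siglecf was kept, with a sum of 16.2 and 6.16 CPM and Epx and Prg2 at 0. The part of these cells in the differences below was not tested.

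More genes were higher than lower in 4T1-CM. A log2 ratio is given throughout as 4T1-CM over normal medium, after scaling the libraries and adding 0.5 to each count, and a gene is called higher or lower when it differed by at least 2-fold. By this rule 1592 genes were higher, 12.0% of those kept, and 784 were lower, 5.89%. The other 10946 genes, 82.2%, lay within 2-fold. The counts of the gene lists given further on stand against these shares, and a list whose shares are close to them does not stand apart from other genes. Higher genes also outnumbered lower genes at larger differences. By at least 4-fold, 638 genes were higher and 160 lower. By at least 16-fold, 194 were higher and 16 lower, and by at least 32-fold, 79 and 8. The median log2 ratio over all genes kept was 0.01, and the 5th and 95th percentiles were -1.10 and 1.94. Beside a ratio stands its exact 95% counting interval (Clopper-Pearson), made from how a gene's reads divide over both libraries and covering counting error only. It lay wholly past 2-fold for 800 of the higher and 299 of the lower genes.

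**Figure D1:**
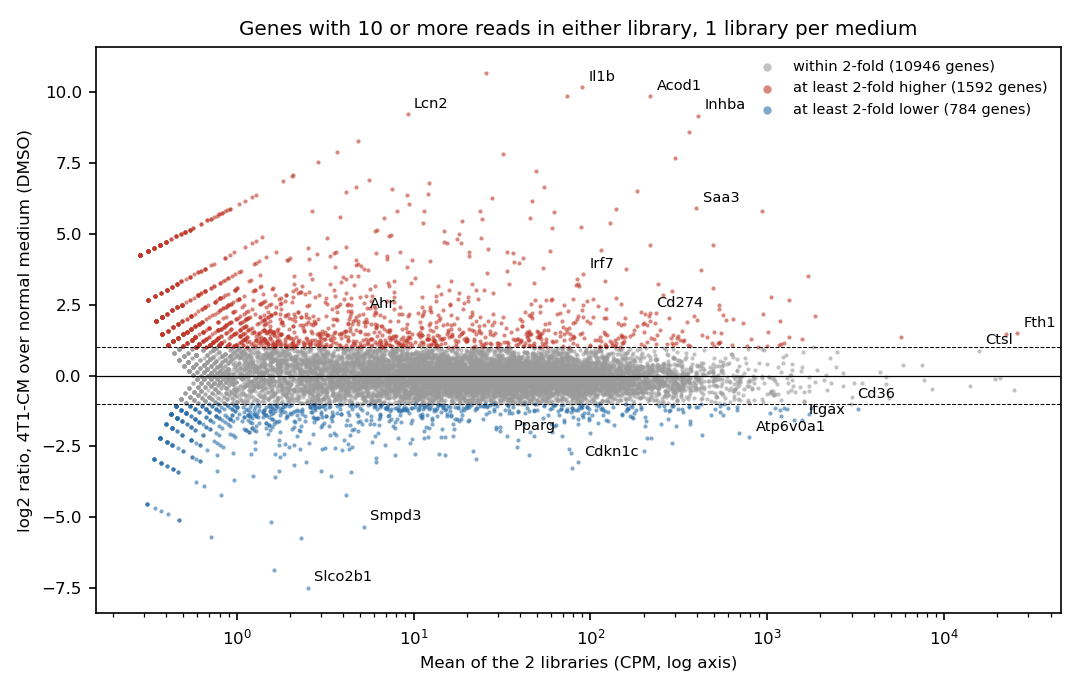
Each point is 1 of the 13322 genes kept, with its mean level in the 2 libraries (CPM, log axis) on the horizontal axis and its log2 ratio on the vertical axis, and dashed lines mark 2-fold. The 1592 higher genes (red) reach further from 0 than the 784 lower genes (blue), and genes near 1 CPM scatter more widely than those above 100 CPM.

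Where a gene lay on the abundance scale bore on how often it was called. Among 741 protein-coding genes with a mean under 1 CPM, 45.6% were higher and 13.5% lower, whereas among 6312 genes between 10 and 100 CPM only 4.75% were higher and 2.66% lower. Above 1000 CPM the shares were larger again, with 13 of 95 genes higher and 11 lower. A gene near 10 reads could enter through its higher library alone, so the shares among rare genes, and the counts of lists that hold them, lean toward called genes. The higher genes took 5.86% of all reads without and 17.8% with 4T1-CM, and the lower genes took 6.56% and 2.51%. Among protein-coding genes, the median log2 ratio was ordered by length, from -0.11 in the shortest of 4 equal groups of genes to 0.10 in the longest.

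The pair of libraries treated with CH223191 shares no library with this comparison. Of the 1592 genes higher with DMSO, 1067 (67.0%) were also at least 2-fold higher in 4T1-CM with CH223191, against 11.2% of all genes kept. Of the 784 genes lower with DMSO, 441 (56.3%) were also lower there, against 7.44% of all genes kept. With a mean of at least 10 CPM, this held for 351 of 451 higher genes and 181 of 262 lower genes.

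Ranked by the end of the interval nearest to no change, the difference in favor of 4T1-CM was largest for Acod1, the gene of the enzyme that makes itaconate from a citric acid cycle intermediate. It lies at chr14:103046977-103056573 in GRCm38 and had 7 and 7661 reads, a log2 ratio of 9.86 (8.92 to 11.28). Il1b, the gene of interleukin-1 beta, had 2 and 3162 reads, and the interval of its ratio ran from 398-fold upward. Inhba encodes the subunit of activin A and had 22 and 14254 reads, a log2 ratio of 9.17 (8.61 to 9.88). The promoter of Acod1, from 250 bases before to 50 after the start in the RefSeq table of GRCm38.p6 (chr14:103046762-103047061, plus strand), is shown because this gene led the ranking. Capitals mark a TATAAA that begins 28 bases before the start.
Acod1: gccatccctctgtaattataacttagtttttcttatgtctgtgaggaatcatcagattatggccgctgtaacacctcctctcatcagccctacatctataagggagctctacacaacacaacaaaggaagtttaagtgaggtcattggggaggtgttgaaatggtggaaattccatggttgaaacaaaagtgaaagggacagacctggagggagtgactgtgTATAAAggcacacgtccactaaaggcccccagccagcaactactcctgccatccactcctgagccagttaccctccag

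Receptors for bacterial and damage-derived peptides followed. Fpr2, a formyl peptide receptor, had 2 and 2588 reads, although 31.5% of its 50-base words also occur in another gene, so that reads may have been shared among the receptors of this family. Fpr1 had 0 and 903 reads, which is at least 274-fold higher against a floor of 3 reads in the library at 0. The acute-phase genes Hp (haptoglobin), Saa3 (serum amyloid A3) and Lcn2 (lipocalin 2, which captures bacterial iron carriers) were likewise higher. Hp had 29 and 12581 reads, a log2 ratio of 8.60. Saa3 had 209 and 13725 reads, a log2 ratio of 5.90. Lcn2 had 0 and 326 reads, at least 99.0-fold higher.

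Others of the 25 genes furthest above 0 act on the matrix, on lipids or on metabolites. Tgfbi, a matrix protein induced by TGF-beta, had 46 and 10571 reads, a log2 ratio of 7.69, and Lox, which crosslinks collagen, had 17 and 1912 reads, a log2 ratio of 6.64. Olr1, the scavenger receptor LOX-1, had 10 and 1708 reads. Cd38, an enzyme that consumes NAD, had 75 and 4844 reads, and Nt5e, the CD73 enzyme that makes adenosine, had 3 and 319. Both enzymes sit on the cell surface. Also among the 25 were H2-M2, Clec4e, Socs3, Acpp, Mmp8, Epha4, Tlr2, Serpinb2, Cav1, Bpifc and Kcna3. In each of the 24 genes shown of these 25 the libraries with CH223191 showed a difference in the same direction. The smallest log2 ratio there was 4.92 for Socs3, and Fpr2, Fpr1, Lcn2, Bpifc and Kcna3 had 0 reads in normal medium with CH223191.

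Ranked in the same way, the differences toward lower values were smaller. Smpd3, a neutral sphingomyelinase, had 164 and 4 reads, a log2 ratio of -5.33 (-7.39 to -4.11). Cdkn1c, the cell cycle inhibitor p57, had 2423 and 320 reads, a log2 ratio of -3.05. Among abundant genes, Atp6v0a1, a membrane subunit of the proton pump of lysosomes, had 20737 and 5041 reads, a log2 ratio of -2.18 (-2.22 to -2.13). Dnmt3a, a DNA methyltransferase, had 17716 and 4725 reads, a log2 ratio of -2.04. The antisense transcript Dnmt3aos on the opposite strand had 293 and 83 reads, and reads of overlapping genes cannot be told apart where counting does not use strand.

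Other genes among the 25 furthest below 0 encode enzymes and surface proteins. Mgll, which splits monoacylglycerols, had 2148 and 357 reads, a log2 ratio of -2.72. Daglb, which makes the lipid that Mgll degrades, had 7795 and 1633 reads, a log2 ratio of -2.39, and it overlaps Rac1 on the opposite strand. Ephx1, an epoxide hydrolase, had 1050 and 200 reads. Cell surface and signalling genes were Slamf8 with 1262 and 200 reads, Cd300a with 5772 and 1387, Rasgrp3 with 421 and 65, Matk with 2076 and 378 and Arhgap25 with 11097 and 2844. Efr3b, Evl, Cmbl, Tmem158, Bex1, Nes, Armc2, Lrrc39, Mamdc2, H2afj, Kcnj2, Snrpg and Gadd45g completed the 25. Shared 50-base words made up 24.9% for Cdkn1c, 23.9% for Daglb, 30.9% for Bex1 and 34.1% for Lrrc39, so part of their reads could belong to other genes.

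**Figure D2:**
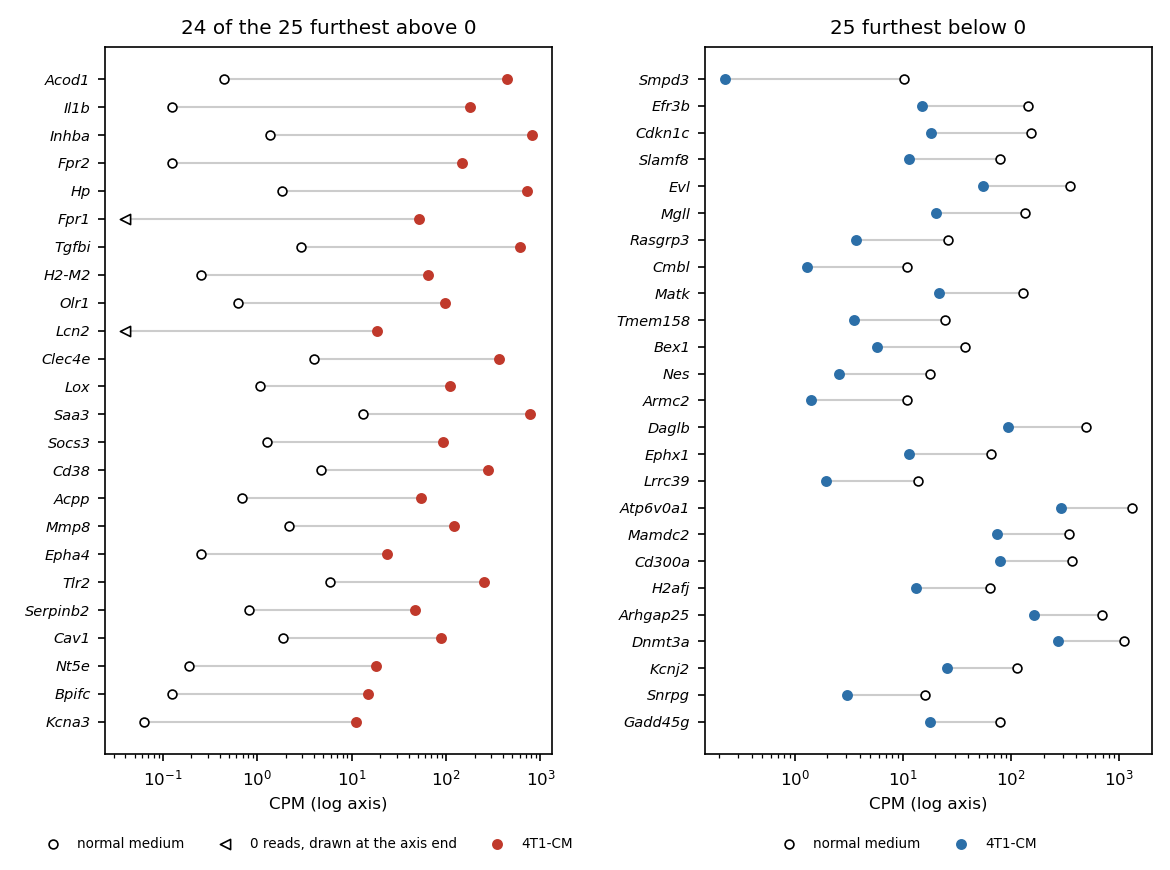
Levels (CPM, log axis) of 24 of the 25 protein-coding genes furthest above 0 and the 25 furthest below 0 in 1 library per medium, ranked by the end of the counting interval nearest to no change. Acod1 goes from 0.438 to 437 CPM at the top of the higher genes, and Fpr1 and Lcn2 had 0 reads in normal medium (triangles at the end of the axis), whereas the lower genes start from measurable levels such as 1298 CPM for Atp6v0a1.

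Genes with few or no reads in 1 of the libraries were found in either direction. With 3 reads or fewer in normal medium, the most reads in 4T1-CM were those of Il1b, Fpr2, Fpr1, Lcn2 and AI504432, a long non-coding RNA with 3 and 424 reads. In the other direction the counts were lower. Slco2b1, an organic anion transporter, had 81 and 0 reads, at least 29.6-fold lower. Cd28 had 73 and 1, Mn1 had 52 and 0, Prss21 had 49 and 1, and Abca6 had 37 and 3. Altogether 106 of the higher genes had 0 reads in normal medium and 11 of the lower genes had 0 in 4T1-CM.

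Weighing genes by the CPM they gained instead of by fold put abundant genes first. Fth1, the heavy chain of the iron store ferritin, went from 13526 to 38278 CPM, 2.83-fold higher. Lyz2, lysozyme, went from 11860 to 32883 CPM, 2.77-fold higher. Ctsl, cathepsin L, had 11079 and 20368 CPM, within 2-fold. Shared words made up 26.3% for Ctsl and 51.1% for mt-Co1. Also among the 10 were mt-Co1, Cd14, Cybb, Spp1, Abca1 and Vim, and together the 10 made up 37.6% of all CPM gained. Cd14, a coreceptor of Toll-like receptors, went from 274 to 3146 CPM, Cybb, the catalytic subunit of the phagocyte oxidase, from 706 to 3021, and Abca1, which exports cholesterol, from 365 to 2286.

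The losses were spread over more genes, with 17.3% of all CPM lost falling to the first 10. Psap, the precursor of the saposins, went from 29134 to 20659 CPM, a log2 ratio of -0.50. The light chain of ferritin, Ftl1, went from 9998 to 7130 CPM while the heavy chain went up, but 58.4% of its 50-base words occur in other genes. Lpl, lipoprotein lipase, went from 4531 to 1988 CPM, Itgax, the gene of CD11c, from 2365 to 800, and Lipa, lysosomal acid lipase, from 2473 to 964. Ctsd, Lgals3, Cd36, Ctsb and Apoe were also among the 10 and stayed within 2-fold. Per base of gene length the order at the top changed little: Fth1 was first in both libraries, with 49160 and 123552 length-scaled transcripts per 1000000 (TPM), and Psap, Lyz2, Ftl1, Ctsd, Spp1, Ctss and Gpnmb were among the 10 most abundant in both.

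**Figure D3:**
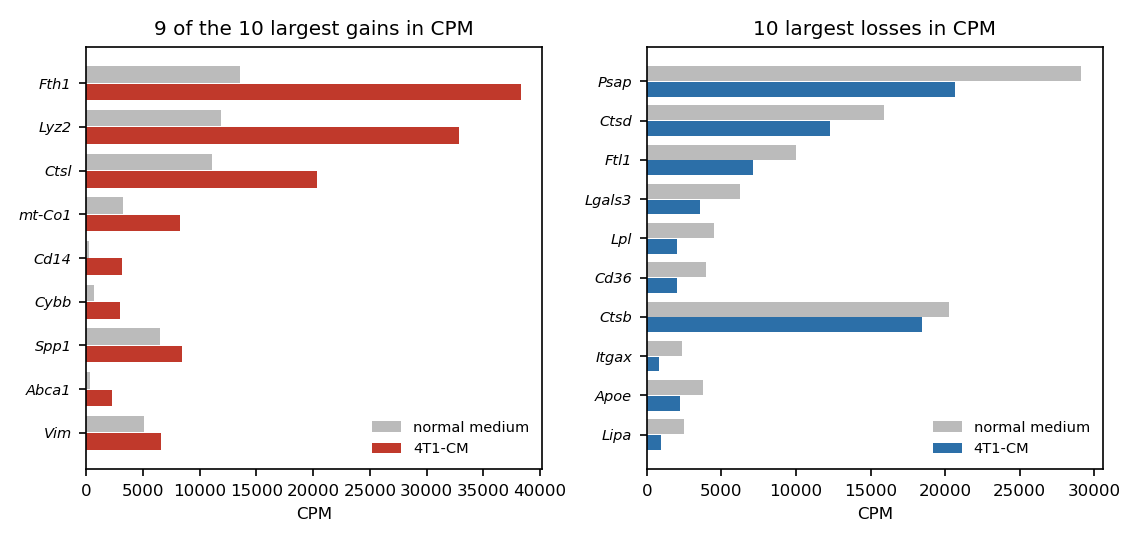
Levels (CPM, bars from 0) of 9 of the 10 protein-coding genes with the largest gain and the 10 with the largest loss between normal medium (grey) and 4T1-CM (color), 1 library each. Fth1 and Lyz2 stand out among the gains with 38278 and 32883 CPM in 4T1-CM, and Psap shows the largest loss, from 29134 to 20659 CPM.

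The receptor gene of AHR itself was read at low depth. Ahr, the receptor, lies at chr12:35497974-35535038 and had 30 and 150 reads with DMSO, a log2 ratio of 2.17 (1.61 to 2.80). With CH223191 it had 21 and 167 reads. Its partner Arnt had 782 and 960 reads, the repressor Ahrr 13 and 25, and the cytoplasmic chaperones Hsp90ab1 and Ptges3 lay within 2-fold. Of 11 genes of this group, all kept, Ahr was the one called, 9.09% against 12.0% of all genes kept.

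Among 15 listed AHR target genes, 8 were kept, and 6 of these were higher and 0 lower. Cyp1b1, a cytochrome that oxidizes aromatic hydrocarbons and estrogens, had 65 and 361 reads, a log2 ratio of 2.33 (1.95 to 2.74), and with CH223191 it had 19 and 171. Cyp1a1, the classic target, had 0 reads in both libraries. Serpinb2, an inhibitor of plasminogen activators, had 13 and 825 reads. Nqo1, a quinone reductase, had 28 and 70, and Tiparp, a feedback inhibitor of AHR, had 882 and 1529 reads, a log2 ratio of 0.66. The promoter of Cyp1b1 (chr17:79715012-79715311, minus strand) is shown for the AHR core motif GCGTG, in capitals and read here on the opposite strand as CACGC, which begins 76 bases before the start.
Cyp1b1: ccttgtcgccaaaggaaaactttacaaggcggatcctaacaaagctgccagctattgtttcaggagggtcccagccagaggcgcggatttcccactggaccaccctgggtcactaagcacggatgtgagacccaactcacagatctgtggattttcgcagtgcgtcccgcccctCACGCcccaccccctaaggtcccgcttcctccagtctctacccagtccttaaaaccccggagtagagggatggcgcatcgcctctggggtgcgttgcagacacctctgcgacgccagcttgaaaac

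Cd274 encodes PD-L1, the ligand that restrains T cells through PD-1. It lies at chr19:29367455-29388095 and had 1247 and 6284 reads, which is 4.59-fold higher (4.32 to 4.88), while with CH223191 it had 1539 and 6091. Of 18 listed checkpoint and costimulatory ligands, 14 were kept, 8 were higher and 1 was lower, with a median log2 ratio of 1.54. The costimulatory genes Cd86 (42 and 248 reads), Cd40 (11 and 85) and Tnfsf9 (3 and 64) were higher as well. Vsir, which encodes the inhibitory receptor VISTA, was the lower one, with 13141 and 6593 reads, and Pdcd1lg2, the gene of PD-L2, had 1 and 2 reads. The promoter of Cd274 (chr19:29367188-29367487, plus strand) holds 1 core of the interferon-stimulated response element (ISRE), GAAANNGAA, read on the opposite strand and shown in capitals, 76 bases before the start. The same window also holds the AHR core GCGTG and the HIF core ACGTG, left in lower case.
Cd274: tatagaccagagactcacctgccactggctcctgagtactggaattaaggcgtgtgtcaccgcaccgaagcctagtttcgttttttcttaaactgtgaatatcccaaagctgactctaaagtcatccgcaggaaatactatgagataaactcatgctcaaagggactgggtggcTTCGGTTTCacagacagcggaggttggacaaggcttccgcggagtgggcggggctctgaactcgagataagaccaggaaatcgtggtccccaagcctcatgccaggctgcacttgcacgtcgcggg

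The list of JAK, STAT5 and SOCS genes had a median log2 ratio of -0.01 over 23 genes, all kept, with 4 higher and 1 lower. The higher ones included some of the feedback inhibitors. Socs3, an inhibitor of JAK signalling, had 20 and 1622 reads, a log2 ratio of 6.17 (5.57 to 6.92), and Socs2 had 18 and 64. Cish had 0 and 15 reads, at least 4.55-fold higher, and was kept through the 4T1-CM library, which favors a call. Socs1, Socs4, Socs5, Socs6 and Socs7 lay within 2-fold, with log2 ratios of -0.48, -0.01, 0.11, -0.44 and -0.22. Stat5a had 474 and 432 reads and Stat5b 1191 and 1219, both within 2-fold, whereas Bcl2l1, the gene of the survival protein BCL-XL, had 4114 and 1586 reads, a log2 ratio of -1.51. Of 11 CSF genes and receptors 7 were kept, 3 were higher and 0 lower. Csf2rb, the shared chain for GM-CSF, had 10498 and 23534 reads, a log2 ratio of 1.03, while Csf2ra, the chain specific to GM-CSF, had 6407 and 3818, a log2 ratio of -0.88. Csf2 itself, the gene of GM-CSF, was at 0 reads in both libraries. The promoter of Cish (chr9:107296409-107296708, plus strand) is shown because it holds the motif TTCNNNGAA bound by STAT proteins (GAS) 2 times in these letters, in capitals, beginning at bases 1 and 12 of the transcript.
Cish: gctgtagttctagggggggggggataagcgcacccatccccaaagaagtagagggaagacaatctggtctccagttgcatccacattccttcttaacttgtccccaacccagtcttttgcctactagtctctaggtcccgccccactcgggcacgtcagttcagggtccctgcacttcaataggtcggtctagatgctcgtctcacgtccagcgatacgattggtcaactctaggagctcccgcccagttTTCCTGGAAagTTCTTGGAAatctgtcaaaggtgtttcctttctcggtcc

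Interferon-stimulated genes were higher as a list. Of 40 listed antiviral effectors of the type I interferon response 36 were kept, 26 of them were higher and 0 lower, all 36 had log2 ratios above 0, and the median was 1.64. Rtp4 had 30 and 690 reads, a log2 ratio of 4.37 (3.86 to 4.97). Ifit1, which binds viral RNA caps, had 9 and 206 reads, a log2 ratio of 4.31 (3.43 to 5.53). Zbp1, a sensor of Z-form nucleic acid, had 27 and 330 reads, Oas2 had 45 and 341 and Ifit2 had 59 and 405. The smallest ratios were those of Ifi35 with 154 and 231 reads and Oasl1 with 523 and 812.

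The regulators of this response gave a more mixed picture. Irf7, which amplifies interferon production, had 225 and 2954 reads, a log2 ratio of 3.58 (3.38 to 3.78), whereas Stat2 and Irf9 had log2 ratios of 0.76 and 0.82, within 2-fold. Irf5 had 2792 and 1893 reads and Irf3 had 501 and 377, on the lower side. Ifnb1, the gene of interferon beta, had 0 reads in both libraries. Of 18 guanylate-binding and immunity-related GTPases 14 were kept, 10 were higher and 0 lower, with Gbp5 at 7 and 65 reads and Gbp3 at 62 and 334. With CH223191 the median log2 ratio of the antiviral effectors was 0.92, and the summed level was 736 and 1324 CPM against 633 and 1564 CPM with DMSO.

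The ISRE core occurred in the promoters of 15 of the 27 antiviral effectors that the RefSeq table holds, 55.6%. This list was chosen for the type I interferon response, so its share could come from that choice alone. The core occurred in 132 of 1014 higher genes, 33 of 471 lower genes (7.01%) and 8.83% of the 9653 genes kept that have a promoter in the table, and in 9.76% of all 27025. Ifit1 is shown as an antiviral gene that holds it. Its promoter (chr19:34640639-34640938, plus strand) holds it 3 times on the opposite strand, 2 of them overlapping, in capitals.
Ifit1: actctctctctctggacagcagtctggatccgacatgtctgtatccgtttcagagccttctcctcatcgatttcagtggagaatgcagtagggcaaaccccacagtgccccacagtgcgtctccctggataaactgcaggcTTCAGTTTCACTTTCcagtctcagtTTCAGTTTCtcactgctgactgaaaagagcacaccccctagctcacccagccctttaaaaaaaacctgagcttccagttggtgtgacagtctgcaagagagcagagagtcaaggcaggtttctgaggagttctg

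Other short motifs were counted in the same windows on both strands. The motif of AP-1, TGANTCA, occurred in 11.9% of higher genes, 6.58% of lower genes and 6.35% of genes kept, and the NF-kB consensus in 9.76%, 5.10% and 6.31%. TATAAA occurred in 12.5%, 10.4% and 8.57%. The AHR core GCGTG was rarer among called genes, with 45.8% of higher, 42.5% of lower and 55.7% of genes kept, as did the cyclic AMP response element TGACGTCA with 2.07%, 2.55% and 3.66%. The GAS motif TTCNNNGAA was held by 9.76%, 7.22% and 8.17%, the C/EBP-ATF motif TGATGNAAT by 1.08%, 0.425% and 0.518%, the HIF core ACGTG by 25.6%, 25.1% and 29.4%, and CCAAT by 40.8%, 45.4% and 43.2%. Of all promoters in the table, 8.97% held the AP-1 motif, 5.14% the NF-kB consensus, 15.7% TATAAA, 35.2% the AHR core, 2.03% the cyclic AMP response element, 9.55% GAS, 1.08% the C/EBP-ATF motif, 21.8% the HIF core and 41.1% CCAAT. A match is a description of the letters and not evidence that a factor binds there, and the ACGTG and GCGTG cores overlap where the letters run on.

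The NF-kB genes that differed were mostly inhibitors and cofactors. Of 15 genes, all kept, 6 were higher and 0 lower, with a median of 0.82. Nfkbiz, a nuclear cofactor, had 50 and 1130 reads, a log2 ratio of 4.35, the inhibitor Nfkbia had 267 and 1344, a log2 ratio of 2.19, and Bcl3 had 89 and 615. The subunit genes Rela (1115 and 1388 reads), Nfkb1 (1221 and 1997) and Rel (467 and 729) lay within 2-fold, and Relb was higher with 217 and 717. Of 22 Toll-like receptors and adaptors 19 were kept, 5 were higher and 0 lower. Tlr2 had 95 and 4404 reads, a log2 ratio of 5.39, while Tlr4 had 1215 and 1226. Irak3, which dampens these receptors, had 265 and 2716 reads, a log2 ratio of 3.22.

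Of 15 CXC and CX3C chemokine genes 10 were kept, 7 were higher and 2 lower. Cxcl1, Cxcl2, Cxcl3, Cxcl13 and Ppbp had 5 reads or fewer in normal medium and were kept through the 4T1-CM library, which favors a call. Cxcl3, Cxcl1 and Cxcl2, which attract neutrophils, had 0 and 130, 4 and 278, and 5 and 207 reads. Cxcl16, a scavenger receptor and chemokine in 1 protein, was far more abundant, with 270 and 7287 reads and a log2 ratio of 4.62. Pf4 had 71 and 1386 reads, and Cxcl13, a chemokine for B cells, had 0 and 72. Cxcl12 was lower with 16 and 2 reads. Of 16 CC chemokines 10 were kept, 4 were higher and 1 was lower. Ccl5 had 3 and 111 reads, Ccl22 had 8 and 64, and Ccl6 and Ccl9 had log2 ratios of 1.24 and 1.34 at 3065 and 7972 and at 2578 and 7167 reads. Ccl2 (440 and 607 reads) and Ccl4 (263 and 189) lay within 2-fold, and Ccl24, an eosinophil attractant, had 14 and 1.

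Receptors for attractants differed in both directions. Of 20 kept of 23 listed, 12 were higher and 4 lower. Besides the formyl peptide receptors, Gpr84, a receptor for fatty acids, had 0 and 170 reads, at least 51.6-fold higher (37.8% of its words are shared), Cx3cr1 had 7 and 247 reads, and Cxcr4 had 1376 and 4649, a log2 ratio of 1.62. Ptafr, the receptor for platelet-activating factor, was lower with 8896 and 3009 reads, a log2 ratio of -1.70. Ccr2, the receptor of classical monocytes, had 32 and 27 reads.

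Cytokines of the interleukin-1 family were led by Il1b, and 5 of 10 kept genes of 14 were higher and 1 was lower. Il1a had 260 and 2628 reads, a log2 ratio of 3.20, and the antagonist Il1rn had 7459 and 13939, a log2 ratio of 0.77. Il1rl1, the receptor for interleukin-33, was lower with 51 and 5 reads. Of 25 genes of the IL-6, IL-10 and IL-12 families and their receptors 18 were kept, 11 were higher and 1 was lower. Il6, Il10 and Il12b were barely read, with 0 and 10, 0 and 1, and 0 and 3 reads, while Osm, a cytokine of the interleukin-6 family, had 66 and 327. Tnf had 247 and 507 reads, a log2 ratio of 0.90. The receptor genes Il4ra (411 and 2168 reads) and Il21r (10 and 129) were higher, and Il6st, the signal chain shared by the interleukin-6 family, was lower with 3665 and 1939. Of 14 inflammasome genes 13 were kept, 5 were higher and 0 lower. The sensors Nlrp3 (188 and 496 reads), Nlrc4 (123 and 325) and Mefv (8 and 386) were higher, while Casp1 and Aim2 lay within 2-fold.

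Activin and TGF-beta genes were higher more often than lower, 9 against 1 of 25, all kept. Fst, which encodes follistatin, the binding protein of activin, had 7 and 59 reads, and Smad6, an inhibitory SMAD, had 5 and 119, a log2 ratio of 4.31. The ligand Tgfb1 had 5535 and 4293 reads and the receptors Tgfbr1 and Tgfbr2 lay within 2-fold. Of 19 matrix metalloproteinases and inhibitors 15 were kept, 8 were higher and 0 lower. Mmp14 (954 and 13718 reads), Mmp9 (738 and 7606) and Mmp8 (35 and 2142) had log2 ratios of 3.71, 3.23 and 5.78. Timp1, an inhibitor of metalloproteinases, had 25 and 815 reads. Mmp12, the elastase of macrophages, was the most abundant of them and lay within 2-fold, with 128630 and 128174 reads. Of 18 genes of plasminogen activation and coagulation 7 were higher and 2 lower. Thbs1, which activates latent TGF-beta, had 615 and 16561 reads, a log2 ratio of 4.62, whereas the plasminogen activator Plau was lower with 12306 and 5544.

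**Figure D4:**
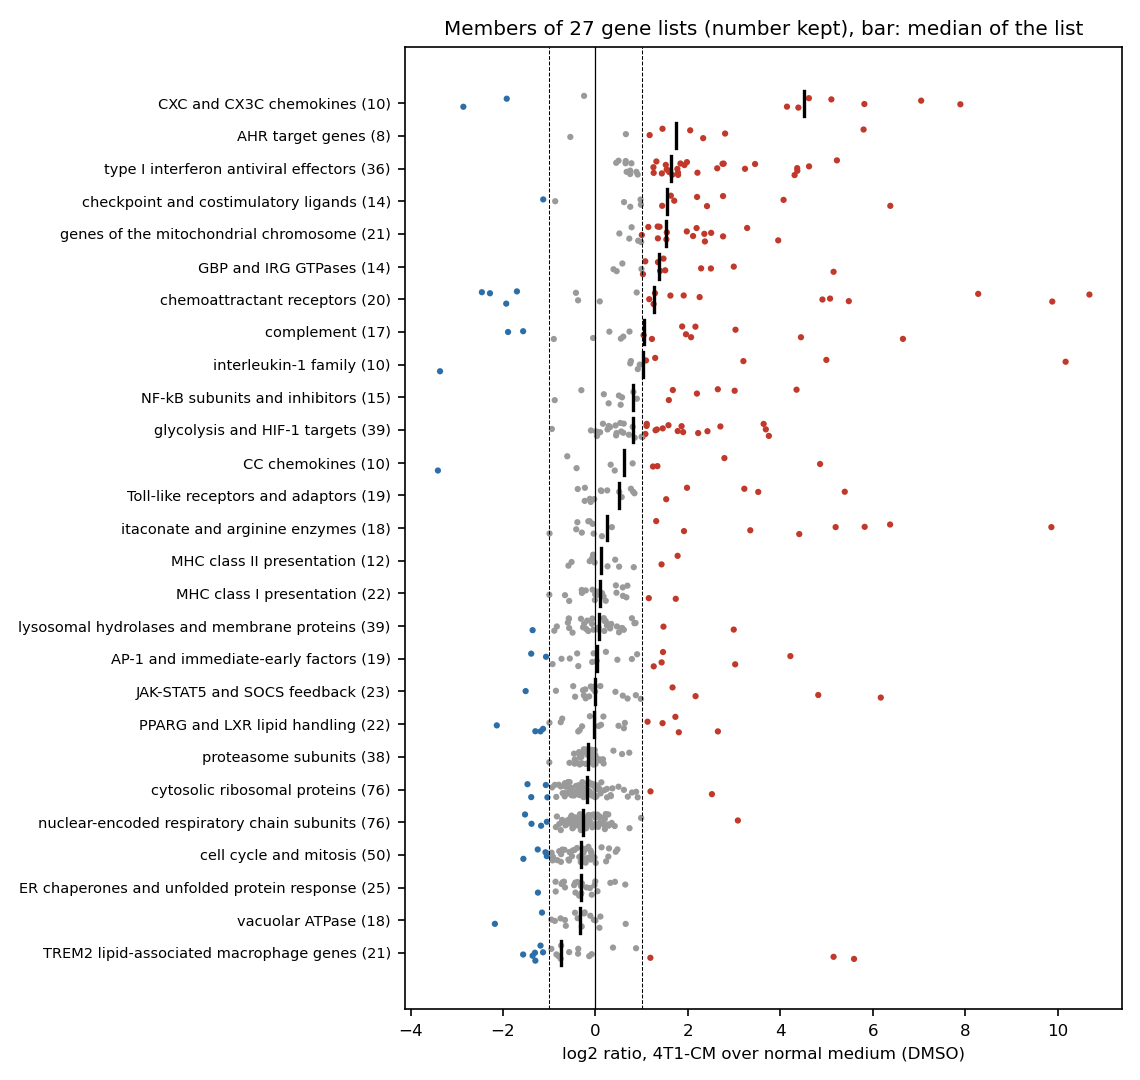
Each point is a gene kept of 1 of 27 gene lists, with its log2 ratio on the horizontal axis (1 library per medium), red and blue for genes at least 2-fold higher and lower, and the bar marks the median of the list. Lists are ordered by their median, which the read filter favors upward where members were rare in normal medium, as among the 10 chemokines at the top. The 36 antiviral effectors are all above 0, and the TREM2 genes of lipid-associated macrophages lie lowest with a median of -0.74.

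Enzymes of glycolysis and other HIF-1 targets were higher as a list, with 17 of 39 higher, 0 lower and 37 above 0, and a median log2 ratio of 0.81. Hif1a had 1331 and 6818 reads, a log2 ratio of 2.22 (2.14 to 2.31), and Vegfa, the vascular growth factor, had 349 and 5165, a log2 ratio of 3.75. The lactate exporter Slc16a3 (2367 and 9678 reads), the regulator Pfkfb3 (2646 and 8683) and the glucose transporter Slc2a1 (2819 and 7771) were higher. Ldha, lactate dehydrogenase A, had 19329 and 42387 reads, just under 2-fold, whereas Aldoa (34216 and 37752) and Pkm (41724 and 48405) were near 0. Hk3, a hexokinase of myeloid cells, lay on the other side with 16440 and 9393 reads, a log2 ratio of -0.94. Of the 35 genes of this list with a promoter in the table, 25 (71.4%) held the HIF core ACGTG, against 29.4% of genes kept. The list was chosen to hold HIF-1 targets, so its share could come from that choice alone. Of all higher genes 25.6% held this core.

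Of 18 itaconate and arginine genes 8 were higher and 0 lower. Besides Acod1, Ass1, which makes argininosuccinate, had 51 and 2071 reads, and Nos2, the inducible nitric oxide synthase, had 0 and 45. Words shared with other genes made up 38.6% for Ass1. Slc7a11, the cystine importer, had 344 and 3853 reads, a log2 ratio of 3.35, and Slc7a2, an importer of arginine, had 1462 and 6055. The polyamine genes Odc1, Srm and Sms lay within 2-fold. Of 24 genes known as IL-4 targets 16 were kept, 9 were higher and 2 lower. Tgm2 (1675 and 15511 reads) and Fn1 (14572 and 39547) were higher, Mrc1 had 2735 and 1751, Egr2 was lower with 2731 and 1144, and Retnla and Chil3 had 3 and 5 and 4 and 6 reads.

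Iron genes differed in both directions, with 6 higher and 3 lower of 23 kept of 27. Hmox1, heme oxygenase 1, had 7506 and 20252 reads, a log2 ratio of 1.30. The importer Tfrc, which encodes the transferrin receptor, was lower with 8848 and 4510 reads, a log2 ratio of -1.11, and the exporter Slc40a1, ferroportin, was lower with 94 and 24. Slc25a37, which carries iron into mitochondria, had 229 and 2684 reads, a log2 ratio of 3.41. Blvra, which reduces the biliverdin made by heme oxygenase, was lower with 2222 and 981 reads. Of the enzymes against oxidants, Sod2 in mitochondria had 1006 and 7979 reads, a log2 ratio of 2.85 (21.0% of its words are shared), whereas Sod1 in the cytosol had 2122 and 1399, a log2 ratio of -0.74.

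Of 25 PPARG and LXR genes of lipid handling 22 were kept, 5 were higher and 4 lower, 11 had log2 ratios above 0 and 11 below, and the median was -0.02. Pparg, the lipid-sensing nuclear receptor, had 885 and 221 reads, a log2 ratio of -2.13 (-2.36 to -1.92), and its target Fabp4 had 1757 and 783. Of the 21 TREM2 genes, all kept, typical of lipid-associated macrophages 6 were lower, 3 were higher and 16 had log2 ratios below 0. Trem2, a receptor for lipids and lipoproteins, had 23583 and 10454 reads, a log2 ratio of -1.31, Plin2, which coats lipid droplets, had 27405 and 13716, and Lipa had 39521 and 16913, a log2 ratio of -1.36. Gpnmb (338402 and 351295 reads) and Spp1 (103623 and 148009) lay within 2-fold. The higher members Cst7 and Ch25h had 0 and 26 and 0 and 19 reads. On the export side Abca1 was higher at a log2 ratio of 2.65, while Abcg1 had 6285 and 7253 reads.

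Tfeb, a transcription factor for lysosomal genes, had 1470 and 493 reads, a log2 ratio of -1.71 (-1.86 to -1.56), and 15 of 18 subunit genes of the vacuolar ATPase had log2 ratios below 0, with 2 lower and 0 higher. Their summed level was 10429 and 6533 CPM. Of 39 lysosomal hydrolases and membrane proteins 2 were higher and 1 was lower, 5.13% and 2.56% against 12.0% and 5.89% of all genes kept. Acp5, the tartrate-resistant phosphatase, had 1040 and 9081 reads, a log2 ratio of 2.99.

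Genes of growth and protein folding had medians slightly below 0. Of 50 cell cycle genes 43 had log2 ratios below 0, but only 5 were lower and 0 higher, and the median was -0.31. Pcna, the sliding clamp of DNA replication, had 6242 and 2884 reads, a log2 ratio of -1.25, and Stmn1 had 492 and 183, while Mki67 had 625 and 954, a log2 ratio of 0.47. Of 25 chaperones and sensors of the endoplasmic reticulum kept of 26, 21 had log2 ratios below 0 and 1 was lower, with Hspa5, the chaperone BiP, at 14442 and 8737 reads. Of 76 cytosolic ribosomal protein genes kept of 80, 2 were higher and 4 lower, and of 38 proteasome genes kept of 39, 0 were higher and 0 lower.

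The mitochondrial chromosome carries subunits of the respiratory chain and the RNAs to translate them. Of its 37 genes 21 were kept, all 21 with log2 ratios above 0, and 16 were higher. Their summed level with DMSO was 6151 and 17576 CPM. With CH223191 it was 11891 and 18088 CPM, so the normal medium library with DMSO was the lowest of the 4. mt-Rnr2, the large ribosomal RNA, had 4336 and 32253 reads, and mt-Nd4 had 2312 and 10971 with DMSO but 10401 and 10137 with CH223191. Shared 50-base words made up 100% for mt-Co2, 99.9% for mt-Co3, 99.5% for mt-Atp6, 62.2% for mt-Nd4 and 51.1% for mt-Co1. The reads of these genes, and the sums and shares that hold them, are therefore uncertain. Nuclear genes of the respiratory chain had a median log2 ratio of -0.27 over 76 genes kept of 81, with 1 higher and 4 lower. The part that the low mitochondrial share of the normal medium library has in other differences was not tested.

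Surface receptors of the myeloid families differed gene by gene. Of 24 C-type lectin receptors 17 were kept, 10 were higher and 1 was lower, and of 30 inhibitory and paired receptors 24 were kept, 10 were higher and 3 lower. Clec4e, the receptor Mincle for glycolipids of mycobacteria, had 64 and 6396 reads, 90.3-fold higher, and Clec4d had 4574 and 14243. Siglece, an inhibitory sialic acid receptor, had 0 and 101 reads, at least 30.7-fold higher, and Marco, a scavenger receptor, had 0 and 64. Cd33 (711 and 4463 reads) and Havcr2, the gene of TIM-3 (382 and 1937), were higher at log2 ratios of 2.51 and 2.21. Fcgr1 and the inhibitory Fcgr2b had 255 and 1546 and 1300 and 6146 reads, while Fcgr3 lay within 2-fold with 4345 and 6202. Of 19 complement genes and receptors 17 were kept, 9 were higher and 2, Itgax and Vsig4 (116 and 34 reads), were lower. Their summed level was 2954 and 1825 CPM, of which Itgax, a chain of complement receptor 4, gave 2365 and 800. C3 had 161 and 3862 reads, a log2 ratio of 4.45, and Cfb had 1 and 165, although Cfb shares 73.0% of its words with other genes.

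Of 21 eicosanoid genes 17 were kept, 7 were higher and 1 was lower. Ptgs2, the inducible cyclooxygenase, had 11 and 172 reads, and Ptges, which makes prostaglandin E2, had 116 and 1770, log2 ratios of 3.77 and 3.79. Hpgds, which makes prostaglandin D2, was lower with 2073 and 702 reads, a log2 ratio of -1.70. Of 27 adenosine and purinergic genes 20 were kept, 6 were higher and 1 was lower. The receptor Adora2a had 54 and 440 reads, a log2 ratio of 2.88, and Entpd1, the CD39 enzyme that feeds Nt5e, had 1101 and 661.

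Antigen presentation runs through MHC class I and class II. B2m, the light chain of MHC class I, had 12260 and 29948 reads, a log2 ratio of 1.15, and 2 of 22 genes of the class I pathway (9.09%) were higher and 0 lower. Of 16 class II genes 12 were kept, 2 (16.7%) were higher and 0 lower, and of all genes kept 12.0% were higher. H2-Ab1 had 93 and 276 reads while H2-Aa had 88 and 116 and Cd74 had 510 and 532. Of 16 commonly used reference genes 4 were higher and 1 was lower. Actb had 66651 and 79135 reads and a log2 ratio of 0.11, whereas B2m, Gapdh, Ppia and Pgk1 were higher and Tfrc was lower. Ppia had 5282 and 11857 reads with DMSO but 15501 and 11039 with CH223191. Gapdh had only 136 and 322 reads, and 25.1% of its words occur in other genes.

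Among 840 genes annotated with a transcription factor family 10.8% were higher and 2.62% lower. Of the protein-coding genes with no such annotation 10.7% were higher and 4.98% lower, so the shares of higher genes were near each other. With at least 100 reads in 1 library, the higher ones were led by Irf7, Smad6, Runx3 (29 and 308 reads), Creb5 (53 and 411) and Pou2f2 (99 and 705). Nfil3, which limits circadian and cytokine genes, had 76 and 544 reads and Nr4a1, an early response factor, had 12 and 111. On the lower side Pparg, Pou3f1 (159 and 39 reads), Tfeb, Egr2 and Hmga2 (117 and 41) came first. The macrophage factors Spi1 and Cebpa lay within 2-fold, with 6079 and 4965 and with 6836 and 6921 reads, and Maf was lower with 1360 and 722.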

How the data were processed

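RNA of mouse peritoneal macrophages was measured by RNA sequencing in 4 libraries. The authors deposited raw read counts per gene, 1 library for each condition, with gene coordinates in the style of GRCm38. The submitters' processing notes name HISAT2 2.0.5 and DESeq2, and the counting tool for these libraries is not given in the sources used here. The library kit and strandedness of these libraries are not given there either, so reads of overlapping and antisense genes may have been mixed. Genes with 10 or more counts in either library of the pair were kept, scaled by TMM factors over the 4 libraries (edgeR 4.0.16, R 4.3.3), and given a log2 ratio with a prior count of 0.5 and an exact Clopper-Pearson 95% interval of the read split (scipy 1.17.1). PCR reads without molecular identifiers are not independent molecules, so intervals cover counting error only. CPM are counts per 1000000 of the scaled library. A gene at 0 reads was set at a floor of 3 reads for its bound.

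Alternatives were other scalings, filters and prior counts, and additive fits over all 4 libraries with edgeR and DESeq2 1.42.0. Leaving out genes that share over 20% of their 50-base words with another gene was chosen after seeing the data. The members and gene lists were chosen with earlier results of these data known. Genes were named by rules: the 25 protein-coding genes of at least 10 CPM furthest from 0 each way by the interval bound nearest 0, the 10 with the largest gain and loss in CPM, the 5 with most reads against 3 or fewer, the 10 most abundant per length, and members of lists. Further list members and the non-coding, transcription factor and promoter examples were chosen after their values were seen. Promoters and motifs came from the RefSeq table of GRCm38.p6, where a gene counted once if any of its promoters held the motif. The 103 genes with a duplicated symbol were named by identifier. Some named genes are not reported here.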

Additional observations from a re-analysis of the deposited data

Results flagged for a closer look

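Some genes that were at least 2-fold higher in 4T1-CM with DMSO were lower in 4T1-CM with CH223191, which turned the direction with 1 library a side. The difference was not tested. Clec2d, a ligand of an inhibitory receptor of NK cells, had 255 and 622 reads with DMSO and 1096 and 670 with CH223191, a log2 ratio of -0.75 with CH223191. Ifi27l2a, an interferon-stimulated gene, had 161 and 424 reads with DMSO and 333 and 266 with CH223191, a log2 ratio of -0.36. Ppia, cyclophilin A, had a log2 ratio of -0.53 with CH223191, and S100a11 had 2128 and 4759 reads with DMSO and 5346 and 4361 with CH223191, a log2 ratio of -0.33.

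For the mitochondrial genes mt-Nd4 and mt-Tc the log2 ratios with CH223191 were -0.075 and -0.99. mt-Tc, a transfer RNA, had 59 and 190 reads with DMSO and 368 and 190 with CH223191. In all these genes the normal medium library with DMSO had fewer reads than the normal medium library with CH223191. Over both directions, and for genes whose mean level reached 10 CPM, which leaves out mt-Tc, 18 genes were past 2-fold with DMSO and of the opposite sign with CH223191, 3 of them lower with DMSO. Of these, 10 are pseudogenes or share over 20% of their 50-base words with another gene, among them S100a11 with 41.1% and mt-Nd4 with 62.2%.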

How the results depend on the processing

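The 2-fold counts depended most on the filter for low counts. Without any filter the counts were 4601 higher and 2587 lower. With 10 or more reads in both libraries 898 were higher and 521 lower, and with the counting interval wholly past 2-fold 800 and 299. Additive fits over all 4 libraries, medium plus inhibitor, left 1 residual degree of freedom and put 2074 genes lower with edgeR and 1239 with DESeq2 at an adjusted p below 0.05, and 2070 and 1211 genes higher. The cause of these shifts was not tested beyond the number of genes each setting admits. Another scaling, a prior of 5 reads, restriction to protein-coding genes and leaving out genes with shared words kept the counts within 1.5 times, between 1261 and 1592 higher and 560 and 862 lower. The median of all genes lay between -0.03 and 0.04. Among 1453 named or listed genes, none of those called higher or lower turned direction where it had a value. Changes of sign among genes within 2-fold were not counted. Of the 1453, 122 had no value at 10 or more reads in both libraries and 16 had none under protein-coding genes alone. The 2-fold call was lost by 11 under scaling to total counts, 22 with a prior count of 5 and 4 with no filter. No paired analysis was possible because the labels carry no replicate numbers and each condition has 1 library. The additive fits block on the inhibitor alone. Depth limits genes of few reads: 341 higher and 85 lower genes had 3 reads or fewer in 1 library.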

Other observations

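Long non-coding RNAs were called more often than protein-coding genes, with 22.1% of 235 long intergenic RNAs higher and 13.2% lower, but their median read number in the higher library was 29 against 453 for protein-coding genes. AI504432 (3 and 424 reads) lies 1434 bases from Kcna3, a potassium channel gene with 1 and 196 reads. Gm34643 (2 and 133 reads) lies 22520 bases from Acod1. Mir155hg, the host transcript of the microRNA miR-155, had 0 and 25 reads, at least 7.59-fold higher. On the lower side, Gm17749 (432 and 109 reads) lies 913 bases from Ankdd1a, which had 300 and 72 reads.

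Other lists hold genes of survival, adhesion and transport. Of 29 apoptosis regulators 27 were kept, 5 were higher (18.5%) and 4 lower (14.8%), against 12.0% and 5.89% of all genes kept. Birc3, an inhibitor of cell death, had 239 and 1237 reads and Cflar, which blocks caspase-8, had 2045 and 5047, while Gadd45a, a gene of the DNA damage response, had 456 and 241. The paralogs Bcl2a1a, Bcl2a1b and Bcl2a1d are near-identical, so their reads are uncertain. Of 25 integrin subunits 18 were kept, 7 were higher and 1 was lower. Itga1, a collagen receptor chain, had 19 and 191 reads, Itgal had 566 and 1925 and Itga5, the fibronectin receptor chain, had 3007 and 6973, against Itgax as the lower one. Of 365 solute carriers 203 were kept, 26 were higher (12.8%) and 13 lower (6.40%), near the shares of all genes kept. Slc36a2, an amino acid transporter, had 13 and 506 reads, a log2 ratio of 5.09, and Slc37a2, a sugar phosphate transporter of macrophages, had 11110 and 4697, a log2 ratio of -1.38. Of 18 TAM receptor and efferocytosis genes 15 were kept, 3 were higher and 2 lower, and the median log2 ratio was -0.16. Axl had 131 and 400 reads and Stab2 had 34 and 5. Of 10 SLAM receptors 7 were kept, and Slamf6 had 5 and 140 reads while Slamf8 was lower.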
